A study of Mus musculus with 5 samples.

Results

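Lung endothelial cells with at least 1 count of Vwf, the gene of von Willebrand factor, were described in 4 single-cell RNA sequencing libraries of whole mouse lung. Newborn C57BL/6J mice were kept in room air or in hyperoxia (95% O2) for 3 days and then all recovered in room air until postnatal day 7 (pnd7) or day 60 (pnd60). Each of the 4 conditions (air pnd7, hyperoxia pnd7, air pnd60 and hyperoxia pnd60, always given here in this order) had 1 library of unsorted cells, and how many mice went into each is not stated in the labels or methods. The spread between mice could therefore not be measured, so conditions were compared without a test, and every interval and floor covers counting error only. The remaining library, of hyperoxia pnd7 cells sorted on the β-galactosidase substrate C12FDG from 3 pooled lungs, was not part of these comparisons.

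Cells with more than 700 and fewer than 8000 detected genes and less than 5% mitochondrial counts were kept, and a cell was taken as endothelial when at least 2 of the 6 genes Cdh5, Pecam1, Cldn5, Ptprb, Clec14a and Egfl7 were detected. This gave 3197 endothelial cells among 12707 cells, of which 618 had Vwf counts and 2579 did not. The Vwf-positive cells numbered 61, 74, 241 and 242, with 637904, 775228, 780301 and 866596 counts in all, out of 16648251, 13576172, 14744081 and 16533775 counts in all kept cells. Because the cells were selected on Vwf itself, its level is a description only. In CPM (the counts of a gene scaled to the same total in every sum), Vwf stood at 1362, 1239.6, 2139 and 2448. The gene lies on chromosome 6 at chr6:125552948-125686679 (mm10). Of the endothelial genes of the gate, Cldn5 could hardly contribute, since it had 3 counts over all barcodes of the 5 libraries.

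Von Willebrand factor is a large adhesive glycoprotein that binds platelets and carries clotting factor VIII. Endothelial cells keep it in elongated storage granules, the Weibel-Palade bodies, from which it is released together with P-selectin and other mediators. In the lung it is known as a product of arteries, veins and larger vessels, whereas the capillary bed, made of general capillary cells and of the thin Car4-expressing cells called aerocytes, holds little of it.

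The label of large vessel endothelium was checked against marker lists for arterial, venous and capillary cells. At least 2 of 11 arterial genes were detected in 83.6%, 83.8%, 78.0% and 76.9% of the Vwf-positive cells, against 42.1%, 67.2%, 53.9% and 54.8% of the Vwf-negative endothelial cells. For the 9 venous genes, these shares were 54.1%, 66.2%, 38.6% and 36.4%, against 26.9%, 36.2%, 11.8% and 12.6%. General capillary genes, 7 in all, were more frequent than the venous genes in all 4 libraries and than the arterial genes in 3, with at least 2 detected in 78.7%, 91.9%, 91.7% and 89.7% of the Vwf-positive cells, against 44.3%, 73.1%, 60.6% and 57.8% of the Vwf-negative cells. These shares favour the Vwf-positive class, which had more counts per cell (a median of 6452 against 2852.5 in air pnd7), and they do not set large vessels apart from capillaries. In summed CPM of the Vwf-positive cells, the general capillary genes stood at 2803, 3031, 4942 and 4995, the arterial genes at 3446, 4279, 2731 and 3426 and the venous genes at 1075, 1158, 2229.9 and 1607, so that of these lists the arterial genes stood highest at pnd7 and the general capillary genes at pnd60. The cells are therefore called by Vwf here and not by vessel type. The levels per total count are compared below. The endothelial genes Cdh5, the cadherin of endothelial junctions, and Pecam1 were at 1229, 1173, 1725 and 1936 CPM and 828, 802, 1159.8 and 1235 CPM in the Vwf-positive cells. Cells with exactly 1 Vwf count (26, 27, 85 and 84 cells) were compared with cells with at least 2 counts (35, 47, 156 and 158 cells). The venous gene Slc6a2 was at 0, 24.8, 10.3 and 11.1 CPM just inside the threshold, at 194, 76.9, 787 and 506 CPM in cells with at least 2 counts, and at 0, 0.810, 2.01 and 2.09 CPM in Vwf-negative cells. The arterial gene Gja5 was at 22.7, 12.4, 13.8 and 29.6 CPM just inside the threshold and at 95.7, 156, 202 and 216 CPM above it, so that for both genes the cells with 1 count lay nearer to the Vwf-negative cells. Cdh5 did not follow this in either hyperoxia library. In hyperoxia pnd7 it was at 956, 1145 and 1185 CPM in cells with 0, 1 and at least 2 Vwf counts, and in hyperoxia pnd60 at 1676, 2023 and 1897 CPM. Between the libraries, 11 barcodes of kept cells were shared, and 1 of these belonged to Vwf-positive cells of both pnd60 libraries.

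Both classes held counts from other cell types, and for epithelial, erythroid, leukocyte and fibroblast markers the Vwf-negative class held more in all 4 libraries. The 7 epithelial markers summed to 4234, 5161, 6357 and 5882 CPM in Vwf-positive cells and to 37386, 44729.8, 25360.4 and 25789 CPM in Vwf-negative cells, with the surfactant gene Sftpc as the most abundant of them in 3 of the 4 Vwf-positive sums. Sftpb was at 0 counts in 3 of those sums, but had 206 counts over all barcodes of the 5 libraries and a copy feature of the gene had another 198, so this 0 says little. The 6 erythroid markers, led by the globin gene Hbb-bs in 3 of the 4 sums, stood at 15658, 3562, 118 and 86.5 CPM in Vwf-positive cells and at 48498, 26510.3, 3881 and 1287 CPM in Vwf-negative cells. Leukocyte, fibroblast and smooth muscle markers summed to at most 797, 1056 and 476 CPM in any Vwf-positive sum. Smooth muscle markers were higher in the Vwf-positive class in hyperoxia pnd60 (123 against 72.7 CPM) and lower in the other libraries. Platelet markers were higher in Vwf-positive cells in 3 libraries, at 348, 11.6, 101 and 106 CPM against 14.5, 23.5, 4.02 and 2.43 CPM, and a single cell gave 89.2% of these counts in air pnd7 and 67.1% in air pnd60. Their part in the results was not tested. The main counts are also given for a stricter gate without cells that carried at least 2 leukocyte, epithelial, fibroblast, smooth muscle or platelet markers, with erythroid markers not considered, which left 29, 41, 135 and 133 Vwf-positive cells and 91, 108, 420 and 421 Vwf-negative cells. At least 2 of the 6 erythroid markers were detected in 100%, 93.2%, 2.49% and 1.24% of all Vwf-positive cells. Whether this was free RNA was not tested.

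Which genes separate Vwf-positive from other endothelial cells was asked with edgeR's quasi-likelihood test on the 8 sums of 4 libraries and 2 classes, with the library as a block. Vwf and the 6 genes of the gate are left out of all counts. Of 11230 genes, 471 (4.19%) were higher and 618 (5.5%) were lower in Vwf-positive cells at an adjusted p under 0.05, and the median log2 fold change of all genes was -0.01. These genes were measured in the same cells that Vwf sorted, so they share their depth: the median was 6452, 6605, 2264 and 2234.5 counts per Vwf-positive cell, against 2852.5, 4490, 1877 and 2003.5 per Vwf-negative cell. With every cell thinned to 1000 counts, 198 genes were higher and 203 lower among 5318, and 175 and 147 of them were the same genes as before. The stricter gate gave 349 and 374 among 7355, of which 182 and 99 were shared.

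The gene with the largest fold change was Slc6a2, the noradrenaline transporter, which clears this vasoconstrictor from blood. It was at 127, 60.6, 499 and 352 CPM in Vwf-positive cells and at 0, 0.810, 2.01 and 2.09 CPM in Vwf-negative cells, with no overlap (log2 fold change 7.59 ± 0.25 (SE), adjusted p = 1.94e-06, edgeR). The counts came from 12, 15, 55 and 41 cells. Every SE of the comparison of classes was worked out from the fold change and the F statistic of the test, and was not estimated separately. For genes with few counts in 1 class, such as Slc6a2, it may understate the error. Cytl1, a secreted cytokine-like protein, was at 6.27, 10.3, 94.8 and 115 CPM against 1.28, 0.810, 1.20 and 0.696 CPM (5.65 ± 0.55, adjusted p = 0.000426). Its level was higher at pnd60, where both libraries exceeded both pnd7 libraries. Next came Mmp16, a membrane-bound matrix metalloproteinase, at 45.5, 63.2, 43.6 and 21.9 CPM against 1.28, 2.84, 0 and 0.348 CPM (5.21 ± 0.44, adjusted p = 0.000249). The retinoid-binding Rbp7 (5.05) and the fatty acid-binding Fabp4 (3.67) were among the same 10 genes, as were the transcription factors Lhx6 (4.28) and Foxc1 (3.84), the protease Tll1 (3.79), the phosphatase Ptprr (3.76) and the secreted Crispld1 (3.66). The 10 genes were picked among those that passed and were higher in all 4 libraries, so neither trait is a result about them. Their adjusted p ranged from 1.94e-06 to 0.00544 (edgeR).

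At the lower end stood genes of other cells. Elf5 and Spink5 (-4.60 and -3.63) and the lung-restricted chemokine Cxcl15 (-3.53) belong to epithelium, Cyp2f2 (-3.23) is an enzyme of airway club cells, C1qb (-4.03) a complement gene of macrophages, S100a8 (-3.53) a neutrophil gene, and Hbb-bs (-3.42) and Hbb-bt (-3.25) are globins. Cckar (-3.48) and Bspry (-3.47) completed this group of 10. All 6 epithelial markers that were tested, all 6 fibroblast markers and 5 of 6 erythroid markers were lower, with list medians of -2.37, -1.25 and -2.96. With the stricter gate, 7 of the 10 had too few counts to be tested, Cyp2f2 no longer passed (-0.12), and Hbb-bs and Hbb-bt were still lower, at -4.18 and -3.51.

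**Figure D1:**
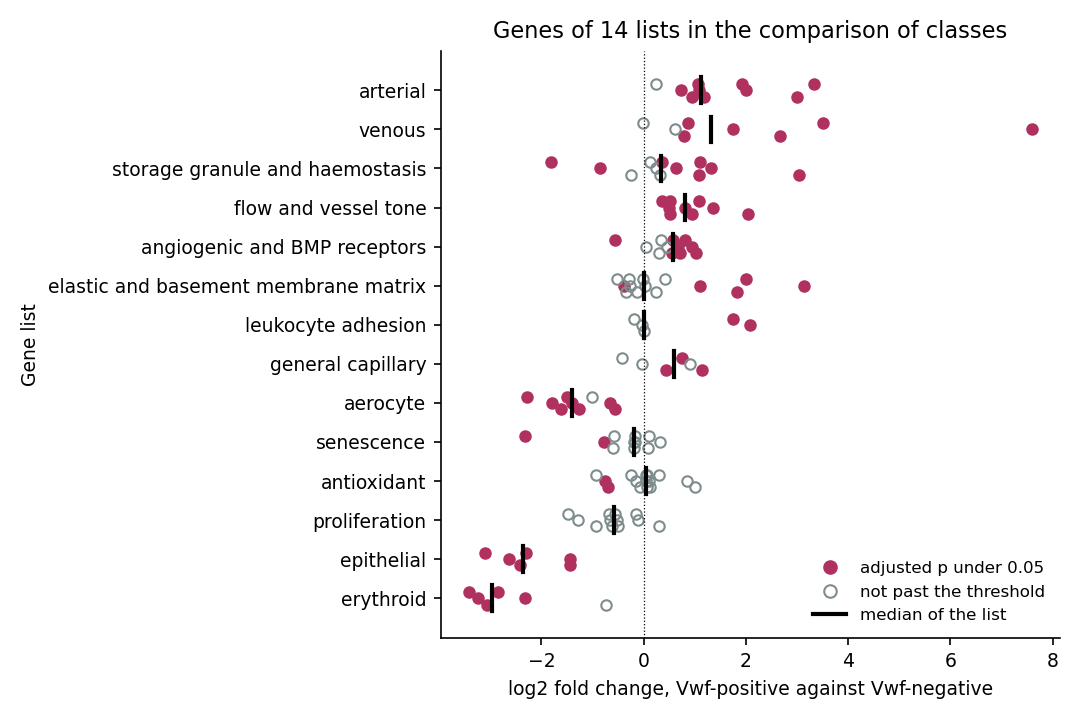
Log2 fold change between Vwf-positive and Vwf-negative endothelial cells for the genes of 14 lists, 1 point per gene, from edgeR on 8 sums of counts. Filled points passed an adjusted p of 0.05 and black bars are list medians. The arterial, venous and flow lists lie to the right, with medians of 1.13, 1.31 and 0.81, and the aerocyte list lies to the left at -1.40.

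Arterial genes were higher in Vwf-positive cells for 9 of the 10 that could be tested, and 0 were lower (list median 1.13). Gja5, the gap junction protein connexin 40 of arterial endothelium, was at 70.5, 111, 132 and 158 CPM against 7.27, 14.6, 9.64 and 13.9 CPM, and the 2 classes did not overlap (3.33 ± 0.18, adjusted p = 3.38e-05, edgeR). The kinase Bmx, another arterial gene, stood at 51.7, 42.6, 47.4 and 115 CPM against 6.84, 2.84, 10.8 and 10.4 CPM (3.01 ± 0.27, adjusted p = 0.000324). The chemokine Cxcl12 was at 875, 1356, 605 and 715 CPM against 173, 208, 224 and 277 CPM (1.92 ± 0.21), and the elastic fibre protein Fbln5 had a fold change of 2.00 ± 0.20. The Notch ligands Jag1 (1.17) and Dll4 (0.72), their target Hey1 (1.07), the ephrin Efnb2 (0.95) and the connexin Gja4 (1.08) passed with smaller changes. Sox17, a transcription factor of the arterial programme, did not (0.24, adjusted p = 0.169). The stricter gate kept 9 genes higher, and Sox17 was then lower (-0.46).

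Of the 8 venous genes tested, 6 were higher and 0 lower (list median 1.31). Besides Slc6a2, these were the cell adhesion gene Amigo2, at 45.5, 40.0, 147 and 136 CPM against 6.84, 6.89, 9.24 and 6.61 CPM (3.52 ± 0.30, adjusted p = 0.000259), and the protease Prss23, at 287, 277, 741 and 473 CPM against 60.7, 58.3, 44.2 and 98.4 CPM (2.66 ± 0.29, adjusted p = 0.000722). Vcam1, which holds leukocytes to the vessel wall, was at 34.5, 18.1, 151 and 85.4 CPM against 12.8, 24.3, 14.5 and 22.6 CPM, higher in 3 of 4 libraries (1.75 ± 0.47, adjusted p = 0.0483). Ephb4, the receptor that marks veins, and Car8 followed at 0.87 and 0.80. The stricter gate gave 5 of 7 higher and 0 lower, where Ephb4 no longer passed (0.19, adjusted p = 0.547), Car8 rose to 5.69 and Nr2f2 passed (1.84). The venous transcription factor Nr2f2 had a fold change of 0.62 with an adjusted p of 0.0612. The chemokine-binding Ackr1 was at 0 in all 4 Vwf-positive sums, and had 16 counts over all barcodes of the 5 libraries.

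**Figure D2:**
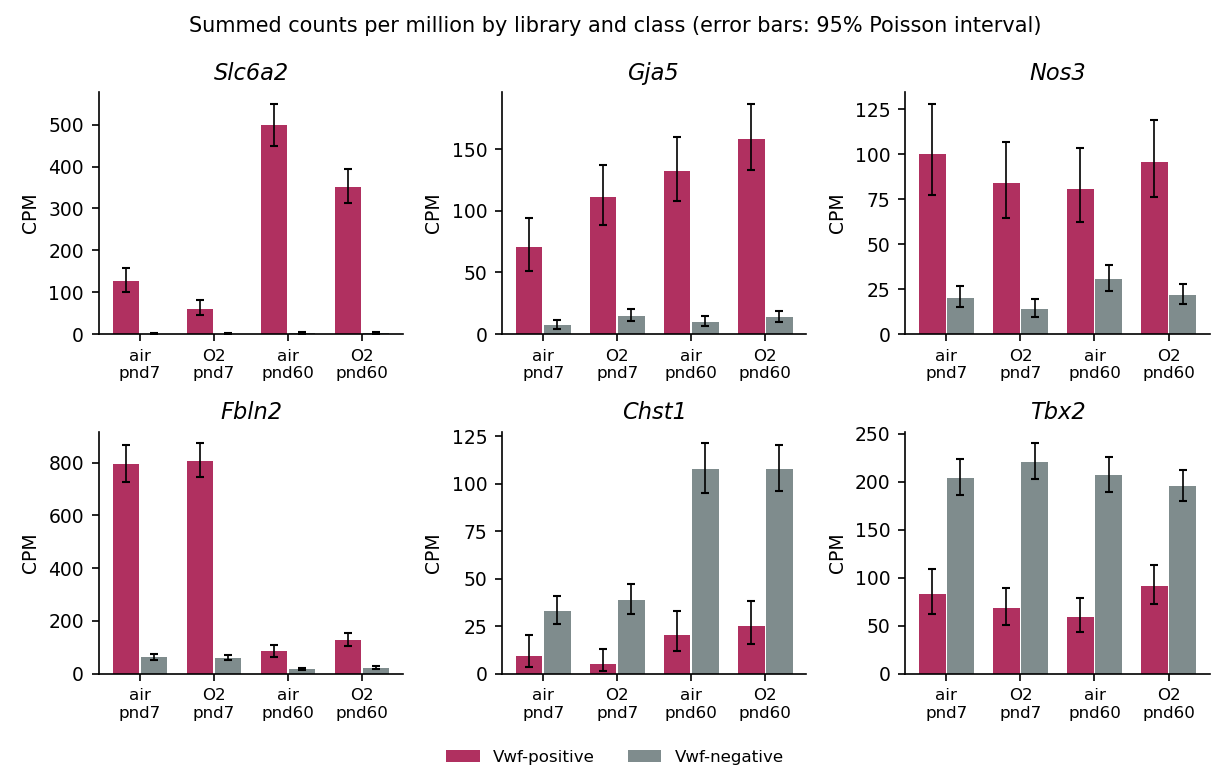
CPM of summed counts for 6 genes in the 4 libraries, with Vwf-positive cells in red and Vwf-negative endothelial cells in grey; error bars are exact 95% Poisson intervals for counting error. Slc6a2, Gja5, Nos3 and Fbln2 are higher in the Vwf-positive class of every library, and the aerocyte genes Chst1 and Tbx2 are lower.

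Genes of storage granules and haemostasis were higher for 6 and lower for 2 of 12. Procr, the endothelial receptor for protein C, changed most, from 4.70, 9.32, 2.01 and 3.48 CPM to 59.6, 87.7, 20.5 and 11.5 CPM (3.03 ± 0.31, adjusted p = 0.000522, edgeR). Entpd1, which degrades the platelet activator ADP, was higher by 1.33 ± 0.22, tissue plasminogen activator Plat by 1.10 ± 0.18, the vasoconstrictor endothelin Edn1 by 1.08 ± 0.12, the granule release gene Rab27a by 0.63 ± 0.14 and thrombomodulin, Thbd, by 0.37 ± 0.09. Among the lower genes was the granule membrane gene Cd63 (-0.86 ± 0.12, adjusted p = 0.00201). F8, the clotting factor that von Willebrand factor carries, was low in both classes, at 6.27, 3.87, 16.7 and 3.46 CPM against 6.41, 3.24, 6.02 and 21.6 CPM, and did not pass (-0.24, adjusted p = 0.885). Selp, the gene of P-selectin, had 1, 5, 27 and 21 counts in Vwf-positive cells and 0, 1, 0 and 0 in Vwf-negative cells, too few for the filter on low counts. Thbd turned to -0.30 and Cd63 to 0.68, in the stricter gate, neither past the threshold, whereas Edn1, Plat, Entpd1 and Rab27a stayed higher.

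All 9 genes of blood flow sensing and vessel tone were higher (list median 0.81). Nos3, the endothelial nitric oxide synthase, was at 100.3, 83.8, 80.7 and 95.8 CPM against 20.1, 13.8, 30.5 and 21.9 CPM (2.05 ± 0.19, adjusted p = 0.000403, edgeR). Ptgis, which makes prostacyclin, and Ptgs1, a cyclooxygenase upstream of it, were higher by 1.36 ± 0.21 and 0.94 ± 0.21. Endothelin-converting enzyme Ece1 (0.81), angiotensin-converting enzyme Ace (0.50) and the flow-induced transcription factors Klf2 (0.52) and Klf4 (0.52) changed less, as did Thbd, counted above. The genes of the gate, given as a description only since the rule read them, differed by 1.56 (Ptprb), 0.90 (Clec14a), 0.42 (Pecam1), 0.25 (Egfl7) and 0.20 (Cdh5), a range that spans most of the flow genes. In the stricter gate 4 of the 9 passed, namely Nos3 (1.60), Ptgis (2.45), Ptgs1 (2.09) and Edn1 (0.59), while Klf2, Klf4 and Ace stood at 0.20, -0.05 and 0.07. There the gate genes ran from 0.99 (Ptprb) and 0.31 (Clec14a) to -0.11 (Pecam1), -0.32 (Egfl7) and -0.43 (Cdh5).

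Matrix genes went both ways. Of the 14 genes of the list, 4 were higher and 1 lower, with a median of 0.00. All 4 higher genes encode elastin or proteins bound to elastic fibres, a description made after their values were seen. Fbln2 was at 793, 808, 84.6 and 129 CPM against 63.3, 59.96, 17.7 and 23.3 CPM (3.14 ± 0.24, adjusted p = 0.000185, edgeR), and Fbln5 and Ltbp4, a binding protein of latent TGF-β, were higher by 2.00 and 1.83. Elastin, Eln, stood at 4278, 2496, 324 and 333 CPM against 1216, 1217, 144 and 245 CPM (1.09 ± 0.18, adjusted p = 0.00557). The basement membrane collagen Col4a2 was lower (-0.39 ± 0.09, adjusted p = 0.0238), a call that was lost without any 1 of the 4 libraries (-0.44 to -0.35), and its partner Col4a1 had a fold change of -0.34 (adjusted p = 0.0622). The stricter gate gave 7 higher and 4 lower of 13, with Mgp (2.25), Bgn (1.92) and the basement membrane laminin Lamb2 (0.67) also higher and Col4a1 (-0.98), Nid1 (-0.61) and Sparc (-0.48) also lower, while the elastic fibre gene Emilin1 stood at -0.56 without passing.

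Among 12 receptors and regulators of angiogenic and BMP signalling, 7 were higher and 1 was lower. The higher genes were the angiopoietin receptor Tek (1.02 ± 0.08) and its relative Tie1 (0.56 ± 0.08), the VEGF receptor Flt1 (0.95 ± 0.09), the BMP inhibitors Smad6 (0.81 ± 0.15) and Smad7 (0.71 ± 0.09), Notch1 (0.66 ± 0.11) and the BMP co-receptor Eng (0.58 ± 0.10). Kdr, the main signalling receptor of VEGF, was lower, at 397, 373, 896 and 831 CPM against 566, 487, 1256 and 1339.5 CPM (-0.56 ± 0.09, adjusted p = 0.00435, edgeR). Under the stricter gate, 3 were higher (Tek, Smad7 and Notch1) and 2 lower (Kdr and the BMP receptor Acvrl1). Of 5 leukocyte adhesion genes, Vcam1 and the junction gene Jam2 were higher (1.75 and 2.08 ± 0.14), and Icam1 and Icam2 stood at 0.01 and -0.03. The stricter gate left 4 to be tested, without Vcam1, and there Jam2 was higher (1.57) and Icam2 lower (-0.57).

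Capillary genes went different ways. Of the 9 aerocyte genes, 8 were lower and 0 higher (list median -1.40). Chst1, a sulfotransferase, was at 9.41, 5.16, 20.5 and 25.4 CPM against 32.9, 38.9, 108 and 108 CPM (-2.28 ± 0.19, adjusted p = 0.000249, edgeR), and the transcription factor Tbx2 was at 83.1, 68.4, 59.0 and 91.2 CPM against 204, 221, 207 and 195 CPM (-1.497 ± 0.14, adjusted p = 0.000369). In both genes the 2 classes did not overlap. The carbonic anhydrase Car4, a marker of these cells, was at 125, 11.6, 131 and 160.4 CPM against 181, 225, 448 and 361 CPM (-1.63 ± 0.37, adjusted p = 0.0236), with a lower level in the Vwf-positive cells of hyperoxia pnd7 than in those of the other libraries. The remaining aerocyte gene, the endothelin receptor Ednrb, had a fold change of -1.002 and passed in the stricter gate (-1.56), where all 9 were lower with a median of -2.81. Of 6 general capillary genes, Plvap, the protein of fenestral diaphragms, was higher (1.15 ± 0.09), as were Cd93 (0.76) and Gpihbp1 (0.44). Of these, Plvap alone was still higher in the stricter gate (0.61), and Kit and Sema3c were lower (-0.87 and -1.37).

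Senescence was a subject of the study after hyperoxia. Of 11 senescence genes, 0 were higher and 2 lower, the cell cycle inhibitor Cdkn2b at 4.70, 2.58, 5.13 and 12.7 CPM against 35.9, 29.98, 30.9 and 30.6 CPM (-2.32 ± 0.35, adjusted p = 0.00322, edgeR) and the chromatin protein Hmgb2 (-0.78 ± 0.20). In the stricter gate Cdkn2b had too few counts to be tested, and Hmgb2 (-0.99) and the nuclear lamina gene Lmnb1 (-0.74) were lower. DESeq2 gave 1 higher and 2 lower of the 11 senescence genes. Cdkn1a, which encodes p21, was at 9.41, 10.3, 56.4 and 34.6 CPM against 12.8, 18.2, 85.1 and 47.3 CPM, lower in all 4 libraries without passing (-0.59, adjusted p = 0.067). Of 16 genes of secreted factors and their receptors, 5 were higher, among them Cxcl12, Igfbp4 (0.79 ± 0.14) and Cxcr4 (0.64 ± 0.15), and 4 were lower, among them Igfbp7 (-1.15 ± 0.14). The 5 became 1 without hyperoxia pnd7 and 2 without air pnd7. For 15 antioxidant genes, 0 were higher and 2 lower (Gclc at -0.76 and Cat at -0.69), and in the stricter gate neither passed. None of 12 proliferation genes passed in either direction with edgeR or with DESeq2, while 3 had an unadjusted edgeR p under 0.05 (list median -0.59). That count of 0 was not stable, since 5 of 12 were lower without air pnd60, 4 at 2 or more Vwf counts, 7 with no filter on low counts, 1 with DESeq2 size factors in edgeR and 5 of 10 in the stricter gate. Of 11 immediate early genes 1 was higher (Dusp1, 0.38), against 6 of 10 in the stricter gate, Fos among them (-0.03 in all cells and 1.37 there).

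The remaining lists were small or mixed. Of 10 interferon genes, Rsad2 alone passed and was lower (-1.70), and 0 passed in the stricter gate. Among 7 imprinted growth genes, the cell cycle inhibitor Cdkn1c was higher (1.21 ± 0.29) and H19 lower (-0.78). With DESeq2, and also without Scrublet doublets, 0 of the 7 were lower. Cd74, an antigen presentation gene that B cells and macrophages express strongly, was lower (-1.48), but stood at -0.01 in the stricter gate (adjusted p = 0.988). Of the lymphatic list Lyve1 was higher, at 641, 595, 1005 and 923 CPM against 252, 243, 271 and 201 CPM (1.65 ± 0.16, adjusted p = 0.000437, edgeR), while Prox1, the transcription factor that defines lymphatic cells, was at 3.14, 5.16, 131 and 0 CPM against 91.5, 53.1, 20.9 and 70.6 CPM and did not pass. With air pnd60 left out, 4 of the 5 lymphatic genes tested were lower. As many were lower at 2 or more Vwf counts and with no filter on low counts, and 2 with DESeq2. Of 6 smooth muscle and pericyte genes 2 were lower, and of 7 leukocyte genes 3 were lower. Itga2b, a platelet gene whose lineage also makes von Willebrand factor, was higher (3.40 ± 0.65, adjusted p = 0.011), on 80, 7, 64 and 49 counts in 9, 6, 7 and 6 cells. The call was lost with 3 or more endothelial genes (2.35) and without hyperoxia pnd60 (3.04), and the gene had too few counts in the stricter gate. Of the platelet list Pf4, Ppbp, Gp1bb and Treml1 were at 0 in all 4 Vwf-positive sums, but these 4 genes had 0 counts over all barcodes of the 5 libraries too.

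Arterial and venous transcripts were next counted cell by cell. On the whole lists, at least 2 arterial and at least 2 venous genes were seen together in 31, 42, 64 and 58 Vwf-positive cells, at least 2 arterial genes without 2 venous ones in 20, 20, 124 and 128, and at least 2 venous genes without 2 arterial ones in 2, 7, 29 and 30. Most cells with venous genes thus also held arterial genes, but so did most Vwf-positive cells as a whole (83.6%, 83.8%, 78.0% and 76.9%). Whether the 2 lists were detected together more or less often than apart was not tested. The most restricted genes of each list overlapped less. Gja5 or Bmx was detected in 17, 23, 52 and 69 Vwf-positive cells, and Slc6a2 or Ackr1 in 12, 15, 55 and 41. Both of these kinds were seen together in 3, 3, 4 and 2 cells, and whether that is fewer than unrelated detection would give was not tested. In percent of the Vwf-positive cells, the arterial pair was found in 27.9% (95% Clopper-Pearson interval 17.1 to 40.8), 31.1% (20.8 to 42.9), 21.6% (16.6 to 27.3) and 28.5% (22.9 to 34.6), and the venous pair in 19.7% (10.6 to 31.8), 20.3% (11.8 to 31.2), 22.8% (17.7 to 28.6) and 16.9% (12.4 to 22.3). Among Vwf-negative cells, which serve as the background here, the arterial pair was found in 5.43%, 8.49%, 4.07% and 5.53% and the venous pair in 0%, 0.738%, 0.551% and 0.522%. The 0 of 442 cells in air pnd7 allows a share with detected counts of up to 0.831%. It sets no limit on the share of cells that express these genes. Detection depends on depth, and most Vwf-positive cells showed neither pair.

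The share of endothelial cells with Vwf was 12.1% (95% Clopper-Pearson interval 9.40 to 15.3) in air pnd7, 21.4% (17.2 to 26.2) in hyperoxia pnd7, 21.0% (18.7 to 23.4) in air pnd60 and 20.2% (17.9 to 22.6) in hyperoxia pnd60. The air pnd7 library stood below the other 3. Among cells with 0 of the 6 endothelial genes, taken here as background, it was 3.40%, 2.61%, 3.22% and 3.73%. Their median depths were 5620, 7543, 2281 and 2412 counts, against 2983, 4623, 1923 and 2037 in the endothelial cells. Whether some of them were cells that make Vwf was not tested. After thinning to 1000 counts per cell, which left out 2, 0, 28 and 33 cells, the endothelial shares were 6.57%, 11.9%, 15.6% and 14.8%, and both pnd60 libraries then lay above both pnd7 libraries. The stricter gate gave shares of 24.2% (16.8 to 32.8), 27.5% (20.5 to 35.4), 24.3% (20.8 to 28.1) and 24.0% (20.5 to 27.8), and all 4 intervals overlapped. In that gate air pnd7 did not stand below the others. Fewer Vwf-positive cells and less Vwf RNA per cell cannot be told apart by these shares.

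**Figure D3:**
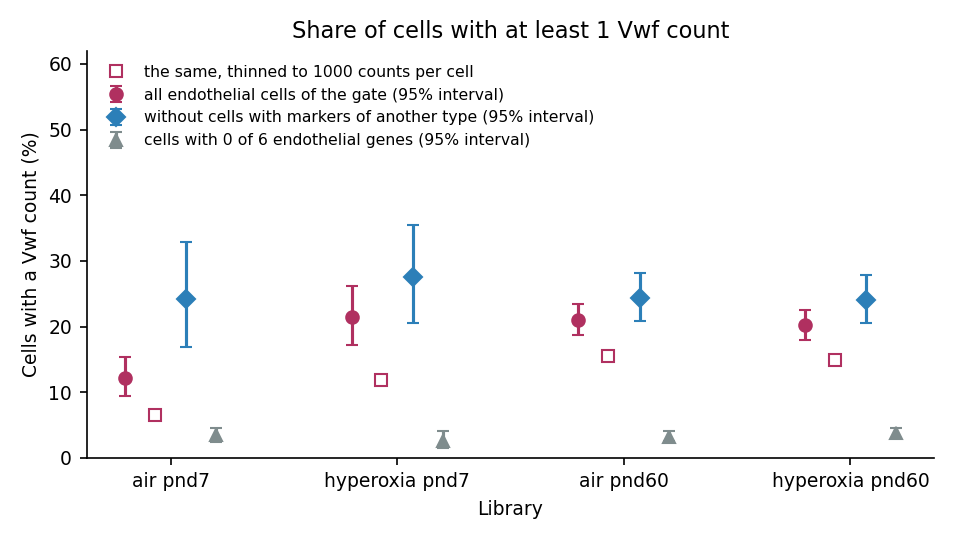
Percent of cells with at least 1 Vwf count in the 4 libraries, with exact 95% intervals for counting error on the filled symbols. Red circles give all endothelial cells, open squares the same after thinning to 1000 counts, and blue diamonds the gate without cells with other markers. Grey triangles give cells without endothelial genes, taken as background. Air pnd7 is lowest among the circles at 12.1%, and the diamonds all lie between 24.0% and 27.5%.

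Hyperoxia was compared with air at pnd7 within Vwf-positive cells by the log2 ratio of CPM, over 5308 genes with at least 50 counts in the 2 libraries together. By at least 2-fold, 55 genes (1.04%) were higher and 186 (3.5%) lower in hyperoxia. The surplus of lower genes was not kept with 3 or more endothelial genes (50 higher and 43 lower of 4934) or in the stricter gate (25 and 28 of 2340). Most of the 5 highest and 5 lowest ratios belonged to genes of other cell types or came from single cells. Ranges in parentheses are 95% intervals of the ratio. Lamp3 at 2.39 (1.31 to 3.68), Sftpd at 2.26 (1.32 to 3.33), Sftpa1 at 1.66 (1.16 to 2.20) and Sftpc at 1.61 (1.51 to 1.71) are genes of alveolar type II epithelium, and 1 cell gave 36.7% of the Sftpc counts in hyperoxia. Tmem252, the other gene of these 5, was at 1.75 (0.82 to 2.80), on 49 and 12 counts. At the lower end, the club cell genes Scgb1a1 and Scgb3a2 stood at -7.75 (-8.88 to -6.82) and -4.90 (-7.98 to -2.97), close to their ratios in Vwf-negative cells (-6.82 and -5.92). Clec1b at -6.28 (-9.34 to -4.40), Slc2a3 at -6.69 (-9.75 to -4.82) and the platelet tubulin Tubb1, at least 33.2-fold lower with 0 counts set to 3, owed 98.4%, 97.6% and 97.6% of their air counts to 1 cell each.

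Of the vascular lists, few members passed 2-fold at pnd7. No arterial gene of 10 did, although 4 had intervals above 0 and 0 below, where 10.3% and 9.08% of all genes had. These were Cxcl12 at 0.63 (0.48 to 0.78), Gja5 at 0.65 (0.12 to 1.21), Gja4 and Fbln5. In the stricter gate 0 arterial genes lay above 0 and 2 below among 9, and Cxcl12 and Gja5 turned to -0.07 and -0.29. Of 7 venous genes Slc6a2 was lower, at 60.6 and 127 CPM (-1.07, -1.62 to -0.53), and Nr2f2 and Car8 were higher, short of 2-fold, at 0.88 (0.54 to 1.22) and 0.56 (0.18 to 0.95). With the mean of the cells' CPM in place of summed counts, the Slc6a2 ratio was 0.06. None of 9 haemostasis genes, 9 flow genes, 13 matrix genes or 12 receptor genes passed 2-fold, with list medians of 0.11, 0.05, 0.13 and 0.05 beside 0.05 for all genes. By intervals, 5 of the 13 matrix genes lay above 0 (Nid1, Bgn, Fbln5, Col4a1 and Sparc, from 0.14 to 0.47) and 1 below, against 2 and 0 in the stricter gate. The lower gene was Eln at -0.78 (-0.86 to -0.69), which was within counting error in Vwf-negative cells (0.00, -0.07 to 0.08), a difference that was not tested. A single cell gave 37.5% of the Eln counts in air, and in the stricter gate its ratio was 0.28. Fibroblast markers had intervals above 0 for 4 of 4 genes tested, with a median of 0.65. Their sum was 1056 CPM in hyperoxia and 691 CPM in air, and 1 cell gave 49.2% of the hyperoxia counts. Their part in the matrix ratios was not tested. The aerocyte gene Car4 was lower, with 9 and 80 counts (-3.43, -4.61 to -2.44).

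Antioxidant genes leaned lower in hyperoxia at pnd7: 6 of 10 had intervals below 0 and 0 above, with a median of -0.44. The 2 past 2-fold were the glutathione synthesis gene Gclm at -1.72 (-2.16 to -1.29) and the metallothionein Mt1 at -1.42 (-1.71 to -1.14), and 1 cell gave 63.1% of the Gclm counts in air. With the stricter gate, 1 of 5 lay below 0. Of 8 senescence genes 3 had intervals above 0 and none passed 2-fold. Proliferation genes were past 2-fold for 2 of 11, Ccnb2 at 1.18 (0.54 to 1.86) and Pclaf at 1.07 (0.56 to 1.60), both higher in hyperoxia, and at least 2 of the 12 genes were detected in 55.4% (43.4 to 67.0) of hyperoxia cells against 27.9% (17.1 to 40.8) of air cells. The same held for 64.2% and 39.6% of the Vwf-negative cells, at median depths of 4490 and 2852.5 counts. The summed level of the 12 genes differed less. In Vwf-positive cells it was 1116 CPM (1043 to 1193) in hyperoxia and 994 CPM (918 to 1074) in air, with overlapping intervals. In Vwf-negative cells it was 1934 and 1650 CPM. Under the stricter gate, 1 of 5 proliferation genes lay above 0 and 3 lay below, with Ccnb2 at -0.18. All 4 erythroid genes with enough counts were lower, Hbb-bs at -2.03 (-2.11 to -1.94), and were lower in Vwf-negative cells too (-0.85, -0.87 to -0.83).

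At pnd60, 62 of 6319 genes (0.981%) were at least 2-fold higher and 61 (0.965%) at least 2-fold lower in Vwf-positive cells of the hyperoxia library, with a median of 0.00 over all genes. Scaling by TMM factors in place of total counts gave 76 and 50. Arterial genes were on the higher side: 6 of 10 had intervals above 0 and 0 below, where 6.09% and 6.12% of all genes had, and 2 were past 2-fold. The kinase Bmx was at 115 and 47.4 CPM in hyperoxia and air, a ratio of 1.28 (0.73 to 1.87), against -0.06 (-0.85 to 0.75) in Vwf-negative cells. Gja4, connexin 37, was at 417 and 202 CPM (1.04, 0.77 to 1.32), and it was also higher in Vwf-negative cells (0.65, 0.44 to 0.87). Dll4 at 0.47 (0.20 to 0.75), Hey1 at 0.33 (0.03 to 0.62), Cxcl12 at 0.24 (0.07 to 0.42) and Efnb2 at 0.20 (0.04 to 0.35) made up the 6. The differences from Vwf-negative cells were not tested. The list median was 0.25, and 0.58 with 7 of 10 above 0 in the stricter gate.

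Venous genes lay on the other side at pnd60, with 4 of 8 intervals below 0, 0 above and a median of -0.38. Slc6a2 was at 352 and 499 CPM (-0.50, -0.72 to -0.28), Prss23 at 473 and 741 CPM (-0.65, -0.83 to -0.46) and Vcam1 at 85.4 and 151 CPM (-0.82, -1.26 to -0.39). Prss23 went the other way in Vwf-negative cells (1.16, 0.83 to 1.49). Nrp2, the only one past 2-fold, was at -1.80 (-2.33 to -1.30). It is also a lymphatic gene, and the air library held 2 Vwf-positive cells with Prox1, of which 1 gave 75.5% of its counts and a single cell gave 32.6% of the Nrp2 counts. Under the stricter gate, 3 of 7 venous genes lay below 0 and 0 above. The shares of cells with the arterial and venous pairs, 28.5% against 21.6% and 16.9% against 22.8%, had overlapping intervals, and the Vwf-positive cells of both libraries had similar depth.

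**Figure D4:**
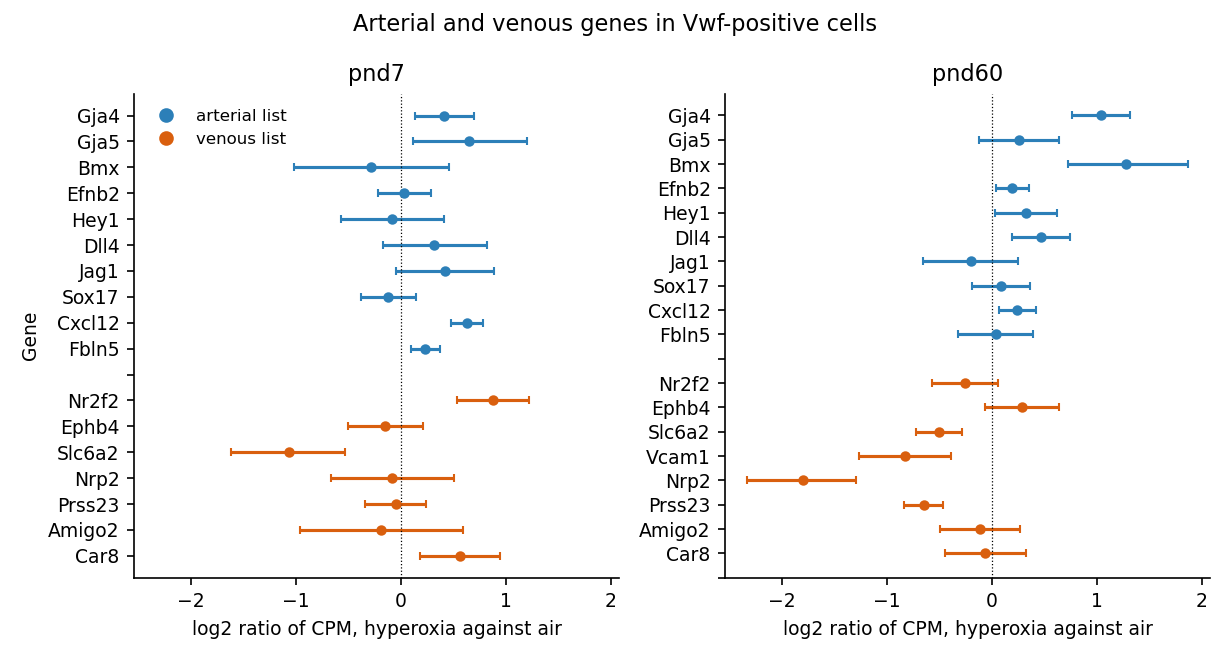
Log2 ratio of CPM between hyperoxia and air in Vwf-positive cells at pnd7 (left) and pnd60 (right), for arterial genes (blue) and venous genes (orange) with at least 50 counts; bars are 95% intervals for counting error within 1 library per condition. At pnd60, 6 arterial intervals lie above 0 and 4 venous intervals lie below it.

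The genes with the highest ratios at pnd60 were the chemokine Cxcl2 at 3.11 (1.79 to 4.798), the matrix genes Postn at 2.69 (1.78 to 3.75) and Mfap4 at 2.01 (1.55 to 2.49), Ly6c2 at 2.68 (1.61 to 3.96) and Gucy1a1, a subunit of the nitric oxide receptor guanylate cyclase, at 2.48 (1.81 to 3.22). Gucy1a1 was seen in 28 hyperoxia and 13 air cells and Mfap4 in 38 and 27. Smooth muscle and pericyte markers moved with them, at 123 CPM (101 to 149) in hyperoxia, led by Pdgfrb, and 61.5 CPM (45.4 to 81.6) in air, and their part in these ratios was not tested. The counts of Cxcl2 and Ly6c2, by contrast, came from 5 and 6 hyperoxia cells. Prox1, at least 37.8-fold lower with 0 counts set to 3, and Mmrn1 (-4.86, -6.33 to -3.71) are lymphatic genes, Top2a (-5.11, -8.18 to -3.19) is a proliferation gene found in 2 cells of each library, and Lyz1 (-4.07, -5.31 to -3.05) owed 96.7% of its air counts to 1 cell. Depp1, a stress-induced gene, was lower in hyperoxia at -3.06 (-4.33 to -1.99), with counts in 8 hyperoxia and 32 air cells. In Vwf-negative cells it stood at -0.60 (-1.09 to -0.11).

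Of 4 lymphatic genes tested at pnd60, 3 were at least 2-fold lower in hyperoxia (list median -3.17), namely Prox1, Mmrn1 and Flt4. Flt4 was at 53.1 CPM in hyperoxia and 149 CPM in air, where 1 cell gave 55.2% of its counts. The lists below held single members past 2-fold or none. Id3, a target of BMP signalling, was at 145 and 41.0 CPM in hyperoxia and air (1.83, 1.26 to 2.43), detected in 81 and 26 cells, and was higher in Vwf-negative cells to a like degree (1.51, 1.11 to 1.93). Mt1 was lower (-2.26, -2.88 to -1.69), as it was at pnd7, and lower in Vwf-negative cells (-0.84, -1.08 to -0.61). The matrix gene Timp3, an inhibitor of metalloproteinases, was at 353 and 769 CPM (-1.12, -1.33 to -0.92). None of 9 haemostasis and 9 flow genes passed 2-fold, with medians of -0.03 and -0.05. Of 10 senescence genes 1 was past 2-fold, Hmgb2 at -1.54 (-1.99 to -1.11), which stood at 0.44 in the stricter gate. Cdkn1a was at 34.6 and 56.4 CPM, a ratio of -0.70 whose interval began at -1.42 and ended just below 0, and -0.85 (-1.17 to -0.53) in Vwf-negative cells.

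The change with age was larger than that with hyperoxia. From pnd7 to pnd60, 758 of 5672 genes (13.4%) were at least 2-fold higher and 497 (8.76%) lower in air, and 962 of 6165 (15.6%) were higher and 679 (11%) lower after hyperoxia. With TMM factors these counts were 568 and 660 in air and 843 and 776 after hyperoxia, since the median ratio of all genes moved from 0.14 to -0.02 and from 0.16 to 0.08. Between ages the libraries also differed in depth per cell, with a median of 6452 and 6605 counts at pnd7 and 2264 and 2234.5 at pnd60, and in the number of Vwf-positive cells. All ratios below are scaled on total counts.

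Receptors and regulators of angiogenic and BMP signalling were higher at pnd60 for 8 of 12 genes in air and 9 of 12 after hyperoxia, and 0 were at least 2-fold lower, with medians of 1.36 and 1.29. Bmpr2, the BMP receptor known for its role in pulmonary hypertension, was at 428, 404, 1465 and 1672 CPM, a ratio of 1.78 (1.58 to 1.97) in air and 2.05 (1.87 to 2.23) after hyperoxia. Smad6 was at 177, 196, 852 and 936 CPM (2.27 and 2.25), and Eng, Acvrl1, Flt1, Kdr and Notch1 were past 2-fold in both. Of the 9 flow genes 5 were higher in either comparison: Thbd (2.14 and 2.32), Ace (1.86 and 1.91), Klf4 (1.75 and 1.45), Klf2 (1.63 and 1.09) and Ece1 (1.27 and 1.30). Nos3 stayed within counting error, at -0.31 (-0.84 to 0.21) and 0.19 (-0.29 to 0.68). Vwf-negative cells had ratios of 2.16 and 2.15 for Thbd and 1.57 and 1.504 for Bmpr2. The genes that the rule read, given as a description only, also rose with age. In Vwf-positive cells they summed to 7329, 6792, 11553 and 12420 CPM, while erythroid markers fell from 15658 and 3562 to 118 and 86.5 CPM. The part of either change in the receptor and flow ratios was not tested. Immediate early and heat shock genes were at least 2-fold higher at pnd60 for 4 of 10 in air and 5 of 10 after hyperoxia. Their medians were 0.95 and 0.81, and their part in the flow gene ratios was not tested.

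Matrix genes again went both ways, with 2 of 13 at least 2-fold higher and 5 lower at pnd60 in each exposure. Eln was at 4278, 2496, 324 and 333 CPM, a ratio of -3.72 (-3.91 to -3.54) in air and -2.90 (-3.09 to -2.72) after hyperoxia, Fbln2 at -3.23 (-3.62 to -2.86) and -2.64 (-2.95 to -2.35), and Fbln5 at -2.87 (-3.16 to -2.59) and -3.07 (-3.33 to -2.81). The collagen Col4a2 and the matrix glycoprotein Sparc were also past 2-fold. In contrast, Timp3 (2.35 and 1.41) and Mgp, an inhibitor of calcification (1.89 and 1.31), were higher. Ltbp4 was at 529.9, 602, 789 and 887 CPM, with ratios of 0.58 (0.38 to 0.77) and 0.56 (0.39 to 0.73), and Emilin1 stood at -0.19 (-0.73 to 0.35) and -0.69 (-1.23 to -0.16), all short of 2-fold. The ratio of Ltbp4 in air did not keep its sign after thinning (-0.14). Eln ratios in Vwf-negative cells were -3.08 and -2.31. Fibroblast markers were also at least 2-fold lower at pnd60, for 2 of 4 genes in air and 4 of 4 after hyperoxia. For smooth muscle and pericyte markers these counts were 2 of 2 and 3 of 4. The part of these markers in the matrix ratios was not tested.

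**Figure D5:**
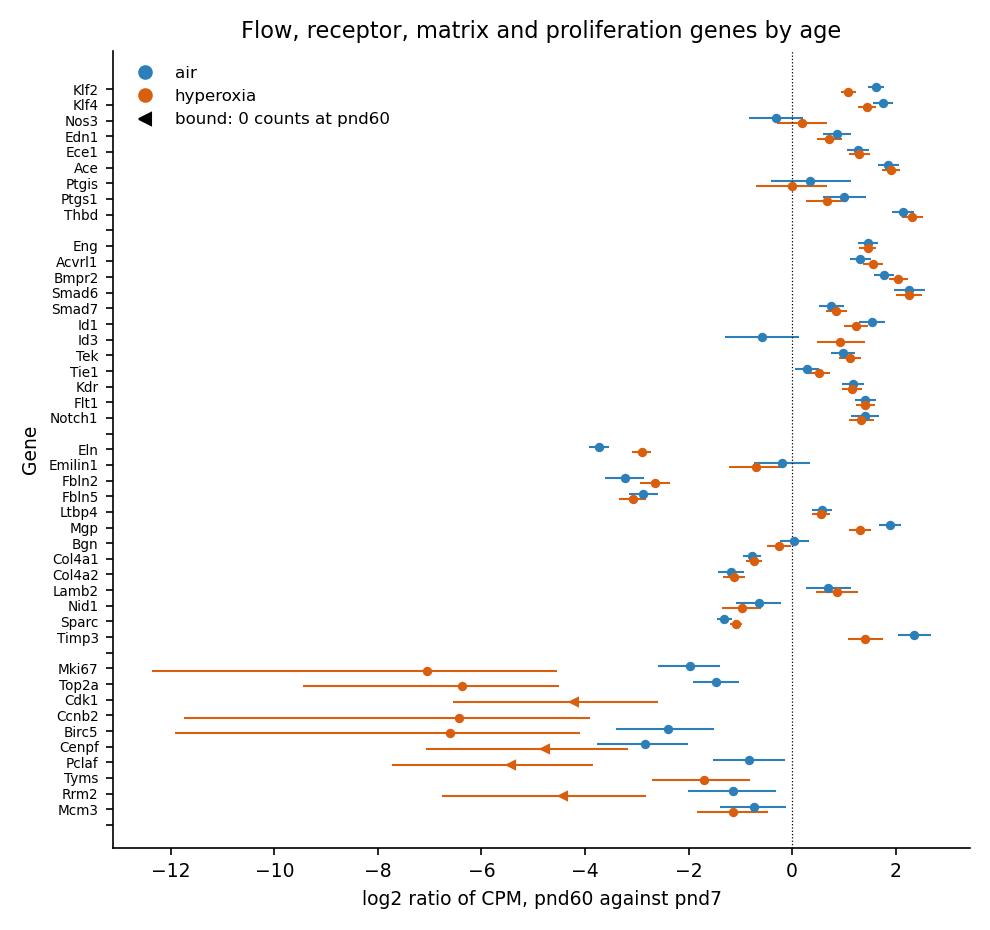
Log2 ratio of CPM between pnd60 and pnd7 in Vwf-positive cells of the air (blue) and hyperoxia (orange) libraries for 4 gene lists, from top to bottom flow, receptors, matrix and proliferation; bars are 95% intervals for counting error, and triangles mark bounds where pnd60 had 0 counts. Receptor and flow genes lie mostly between 0 and 2.5, whereas Eln lies near -3.72 and -2.90.

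Proliferation genes were lower at pnd60, for 5 of 7 genes in air and 10 of 10 after hyperoxia, with medians of -1.47 and -5.09. Mki67 had 103, 118, 32 and 1 counts in the 4 libraries, from 11, 24, 7 and 1 cells, and Top2a had 140, 149, 62 and 2. At least 2 of the 12 genes were seen in 27.9% and 55.4% of the cells at pnd7 and in 4.98% (2.60 to 8.54) and 2.48% (0.915 to 5.32) at pnd60, when the cells also held fewer counts. Imprinted growth genes fell in the same way, for 4 of 5 and 4 of 6 genes, with Mest at -4.11 (-4.91 to -3.40) and -3.29 (-3.75 to -2.85) and the long RNA H19 with 70, 54, 0 and 1 counts. Of the 9 haemostasis genes 1 was higher, Thbd, and 1 lower, Procr, at -1.54 (-2.48 to -0.66) in air and -2.93 (-4.05 to -1.96) after hyperoxia.

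Venous genes were higher at pnd60 for 5 of 8 in air and 3 of 8 after hyperoxia, and arterial genes for 3 and 4 of 10, with 1 arterial gene lower, Fbln5, each time. Slc6a2 had ratios of 1.97 (1.62 to 2.34) and 2.54 (2.09 to 3.01) and Amigo2 of 1.70 (1.10 to 2.34) and 1.77 (1.19 to 2.39). Lymphatic genes were also at least 2-fold higher, for 3 of 4 in air (median 3.85) and 1 of 2 after hyperoxia. A single cell gave 24.1% of the lymphatic counts in air pnd60. For Sema3c, a guidance factor of the general capillary list, the ratios were 3.1 (2.71 to 3.52) and 3.65 (3.25 to 4.08), beside 2.03 and 2.21 in Vwf-negative cells. All 5 interferon genes in air and 2 of 5 after hyperoxia were at least 2-fold higher, with Oasl2 among them in both. B2m, the light chain of class I antigen presentation, was at 470.3, 626, 2508 and 2868 CPM. Leukocyte markers were at least 2-fold higher at pnd60 for 0 of 4 genes in air and 5 of 5 after hyperoxia. They summed to 401, 195, 657 and 797 CPM, and their part in these values was not tested. Of the senescence list, 3 of 9 genes were higher and 3 lower in air and 1 of 8 higher and 4 lower after hyperoxia, with Cdkn1a at 2.58 (1.35 to 4.11) in air.

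The genes with the largest age ratios were partly shared by both exposures. Inmt, an indole methyltransferase, had 0 counts in both pnd7 libraries and 211 and 380 at pnd60, at least 57.5-fold and 113-fold higher with 0 counts set to 3, and was also higher in Vwf-negative cells (6.72 and 9.58). In air, Cyp1a1, an enzyme induced through the aryl hydrocarbon receptor, followed with 200 and 1 counts (7.35, 4.86 to 12.66), with Apold1 (5.82, 3.29 to 11.14), an early response gene of vessels, the cyclooxygenase Ptgs2 (5.71, 3.18 to 11.04) and the lipid enzyme Scd1 (5.54, 4.55 to 6.76). After hyperoxia, Grtp1 (5.48, 2.94 to 10.81), Scgb1a1 (5.10, 4.16 to 6.24), Olfm2 (5.01, 3.62 to 6.90) and the B cell gene Cd79a, at least 27.4-fold higher, followed. The lowest ratios in air were those of the globins Hbb-bt, Hbb-bs, Hba-a2 and Hba-a1, from -8.18 to -6.76, and of Ltbp2 (-4.86, -7.17 to -3.25). After hyperoxia they were those of Hbb-bs (-7.31), Hbb-bt (at least 123-fold lower) and the cell cycle genes Mki67 (-7.04, -12.36 to -4.54), Cks1b (-6.64, -11.96 to -4.12) and Birc5 (-6.60, -11.92 to -4.09). The globins are red blood cell genes. In Vwf-negative cells Hbb-bs had ratios of -4.15 and -4.74, where 1 cell gave 38.5% of its counts in air pnd60 and 79.2% in hyperoxia pnd60, and the difference between the classes was not tested.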

How the data were processed

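Single-cell libraries of dissociated mouse lung were sequenced after droplet capture. The deposited values are raw counts of molecules per gene and cell barcode, which the authors made with Cell Ranger on mm10 (version and annotation: not given in the sources used here; the matrix headers give software version 3.1.0). The submitters' processing notes also name Seurat 3.2.1. The files hold 42454 features, of which 2 are mitochondrial. Copy-numbered features exist for 1740 genes and were not added to their gene. Of the 242 listed genes, 16, Cldn5 among them, had fewer than 20 counts in the 5 libraries, for a reason that was not tested.

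Cells were kept above 700 and below 8000 genes and under 5% mitochondrial counts, and counts were summed per library and class. Barcodes per library were 4243, 2664, 5128 and 5632, and 569 in the sorted one. The upper limit on genes was the study's own guard against doublets, and no others were removed. Scrublet (scanpy 1.11.5), used as an alternative, marked 0.0433%, 0.321%, 3.14% and 3.28% of cells. Why it marked so few at pnd7 was not tested. Classes were compared with edgeR 4.0.16 (quasi-likelihood, TMM factors, its filter on low counts, library as block, Benjamini-Hochberg adjustment over 11230 genes), which was checked on simulated data, with DESeq2 1.42.0 as an alternative. The 4 sums per class come from libraries of different conditions. With the library as a block, p-values measure how the difference between classes varied across these libraries, not how the libraries themselves differed. Conditions, with 1 library each, were compared by ratios of CPM for genes with at least 50 counts in the pair, with exact binomial 95% intervals, and a gene at 0 was set to 3 counts per library for a bound.

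The text names genes of 25 lists, the 10 genes with the largest and the 10 with the smallest fold change between classes among those that passed and went the same way in all 4 libraries, and the 5 highest and 5 lowest ratios of each comparison of conditions. Values of 2 listed genes are not reported here. Members and lists were chosen with earlier results of these data known. The gate with both restrictions and the mean of the cells' CPM were alternatives chosen after seeing the data. The position of Vwf is from RefSeq on GRCm38 (mm10).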

Additional observations from a re-analysis of the deposited data

Results flagged for a closer look

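The C12FDG-sorted library of hyperoxia pnd7, left out of the comparisons, held 4 Vwf-positive cells among its 8 endothelial cells and 493 cells in all. Of its 452 cells with none of the 6 endothelial genes, 20.1% also had a Vwf count, at a median of 15415 counts per cell, so the 4 cells were not read as a class of their own.

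Log2 ratios of hyperoxia against air had intervals on opposite sides of 0 at pnd7 and pnd60 for 15 listed or otherwise named genes. These ratios are within Vwf-positive cells, and the difference between the ages was not tested. The number over all tested genes is not given here. Of all tested genes, 10.3% lay above and 9.08% below 0 at pnd7, and 6.09% and 6.12% at pnd60. Cd52 was at -1.18 at pnd7 and 0.35 at pnd60, and Cd74 at -2.11 and 0.45; both are genes of leukocytes. A single cell gave 81.3% of the Cd74 counts and 49.3% of the Cd52 counts in air pnd7. The fibrillar collagen genes Col1a1 and Col3a1 went from 0.60 to -1.06 and from 0.48 to -0.73, with 52.5% and 61.3% of their counts in hyperoxia pnd7 and 64.2% and 53.7% in air pnd60 from the top cell. Emp2 stood at -0.63 and 0.57, Fosb at -0.46 and 0.21, Gpx1 at -0.50 and 0.41, and Igfbp7 at -0.28 and 0.38. Fos was at 0.34 and -0.24, Hmgb2 at 0.36 and -1.54, and Tmem252 at 1.75 and -0.69. The globin gene Hba-a1 was at -2.61 and 0.77, and 88.2% of its counts in hyperoxia pnd60 came from 1 cell. The surfactant genes Sftpa1, Sftpc and Sftpd were at 1.66, 1.61 and 2.26 at pnd7 and at -0.18, -0.13 and -0.48 at pnd60.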

How the results depend on the processing

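Shares of Vwf-positive cells moved with the gate and the depth. Against 12.1%, 21.4%, 21.0% and 20.2%, they were 6.96%, 13.6%, 13.6% and 13.2% at 2 or more Vwf counts, 18.1%, 24.9%, 25.5% and 24.3% with 3 or more endothelial genes, 24.2%, 27.5%, 24.3% and 24.0% without cells with other markers, 25%, 28.2%, 24.4% and 24.2% with both, and 6.57%, 11.9%, 15.6% and 14.8% after thinning. A wider filter on cells and removal of Scrublet doublets moved them by less than their intervals.

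Between classes, 471 genes were higher and 618 lower. The counts were 302 and 321 with 3 or more endothelial genes, 349 and 374 without cells with other markers, 347 and 371 with both, 198 and 203 after thinning, and 722 and 1256 with no filter on low counts. The library was a block in this comparison, and without the block 63 and 85 remained. Leaving out 1 library at a time gave 288 to 376 higher and 314 to 515 lower, with the lowest counts in both directions (288 and 314) when hyperoxia pnd7 was left out. Among named genes the call was lost for 8 without air pnd7 (Col4a2, Cxcl15, Cxcr4, Dusp1, Hmgb2, Rsad2, Thbd and Vcam1), 12 without hyperoxia pnd7 (Cckar, Cdkn1c, Col4a2, Cxcl15, Cxcr4, Dll4, Gclc, Gpihbp1, Hmgb2, Igfbp4, Rab27a and Rsad2), 11 without air pnd60 (Car4, Cckar, Cdkn1c, Col4a2, Dusp1, Gclc, Gpihbp1, Ptgs1, Rab27a, Thbd and Vcam1) and 17 without hyperoxia pnd60 (Ace, Car4, Cdkn1c, Col4a2, Cxcl15, Cxcr4, Dll4, Dusp1, Gpihbp1, H19, Hmgb2, Itga2b, Ptgs1, Rab27a, Rsad2, Thbd and Vcam1), in the same direction each time. DESeq2 called 366 and 430. Among the lists that lost calls with it, interferon and imprinted growth had 0 lower in place of 1, and haemostasis 5 higher in place of 6. Other list counts grew, senescence and antigen presentation from 0 to 1 higher and lymphatic from 0 to 2 lower. No paired analysis was possible between conditions because each had 1 library. Without cells with other markers, and with 3 or more endothelial genes in addition, the fold change reversed for Cat (0.10 and 0.10), Cd63 (0.68 and 0.70), Gpihbp1 (-0.19 and -0.19), Klf4 (-0.047 and -0.047), Thbd (-0.30 and -0.30) and Tie1 (-0.013 and -0.018). With both restrictions Cd74 stood at 0.027, and with 3 or more endothelial genes alone Thbd was at -0.0028.

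Genes past 2-fold between hyperoxia and air numbered 241 at pnd7 and 123 at pnd60, and those between ages 1255 in air and 1641 after hyperoxia. In this order, they were 53, 46, 783 and 910 without cells with other markers, 55, 47, 783 and 905 with both restrictions, 13, 16, 454 and 509 after thinning, 691, 497, 2187 and 2672 with at least 20 counts in the pair, and 98, 43, 712 and 1001 with at least 100. With 3 or more endothelial genes the count at pnd7 was 93, of which 50 were higher and 43 lower. At pnd7, the ratios of Ccnb2 (-0.18 and -0.17), Cxcl12 (-0.068 and -0.063), Eln (0.28 and 0.28) and Gja5 (-0.29 and -0.28) reversed without cells with other markers and with both restrictions, as did Hmgb2 at pnd60 (0.44 and 0.44). The mean of the cells' CPM turned Slc6a2 at pnd7 to 0.064. Between ages in air, Ltbp4 stood at -0.14 after thinning and at -0.0021 with the mean of the cells' CPM. A gene with fewer than 20 counts in the pair under an alternative has no value there. The cause of these changes was not tested, except that the thinned and stricter settings hold fewer counts. The pnd7 comparisons rest on 61 and 74 Vwf-positive cells, and those at pnd60 on 241 and 242 with fewer counts each.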
